A study of Mus musculus with 2 samples.

Results

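The renin-angiotensin system was followed here through 7 genes, *Agt*, *Ace*, *Enpep*, *Lnpep*, *Agtr1a*, *Agtr2* and *Atp6ap2*, in single cells of the mouse abdominal aorta. The genes were taken by symbol from the count matrices, and each matched 1 row of 33696. Angiotensinogen, the product of *Agt*, is cut by renin to angiotensin I, and the angiotensin-converting enzyme *Ace* turns angiotensin I into angiotensin II (AngII). AngII acts on vessels mainly through the type 1 receptor, of which the mouse has 2 genes, *Agtr1a* and *Agtr1b*, to constrict them and raise pressure. The type 2 receptor, *Agtr2*, is best known from fetal tissue and is often described as opposing the type 1 receptor. Aminopeptidase A (*Enpep*) converts AngII to angiotensin III, and the insulin-regulated aminopeptidase (*Lnpep*) cleaves oxytocin and vasopressin and binds angiotensin IV. The prorenin receptor *Atp6ap2* binds prorenin and is also an accessory subunit of the vacuolar proton pump (V-ATPase).

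The study induced abdominal aortic aneurysm in 5-month-old male C57BL/6J mice and dissociated the abdominal aorta for 10x Genomics 3′ single-cell RNA sequencing. AngII+HS mice received AngII at 1500 ng/kg/min from an osmotic minipump for 28 days, with 0.9% NaCl and 0.2% KCl in the drinking water. Control mice received normal saline, and the sources used here do not say what they drank. The infused peptide is the ligand of *Agtr1a* and *Agtr2*, so every contrast compares vessels with and without added ligand. Salt water came with the ligand in AngII+HS, and whether Control mice also drank salt is not known. Each condition is 1 library, and the sources disagree on how many animals it holds. The design text gives 5 mice per pool and a protocol gives 1 Control and 2 AngII+HS mice, so the spread between animals was not measured. No test between conditions was possible, no p-value is given, and every interval below covers counting error only.

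The Control library held 75294050 unique molecular identifiers (UMIs, each a counted transcript) in 10269 retained cells, and the AngII+HS library held 80581691 in 19734. The median was 7274 UMIs per cell in Control and 3065.5 in AngII+HS. Levels are given in CPM, the UMIs of a gene divided by all UMIs of the summed cells of a type and put on the usual CPM scale, so they do not depend on the number of cells. Cell types were named from marker genes: vascular smooth muscle cells (VSMCs, 5055 Control and 536 AngII+HS cells), fibroblasts (1900 and 3704), vascular endothelial cells (VECs, 796 and 1176), macrophages (471 and 4515), pericytes (42 and 93) and smaller classes. The macrophage class includes a cluster led by *Arg1* and *Ccl24* whose markers named it monocyte (40 Control and 2063 AngII+HS cells). A mural cluster led by *Pln* and *S1pr3* (134 and 119 cells) stayed unnamed. So did a low-depth cluster led by *Cst3* and *Igfbp6* (658 and 459 cells), in which all 5 fibroblast markers were detected. It is not part of the fibroblasts below. Subclusters of low depth, or with 2 or more markers of another type among their 10 leading genes, were set apart. Subclusters with 1 such marker stayed in their class, without a subtype name. VSMCs were thus 49.2% of retained Control cells and 2.72% of AngII+HS cells, so a gene's total moves with the makeup of the sample. The recorded barcode lists have the lengths of each other's matrices (24804 lines for Control and 11448 for AngII+HS) and stayed out of the work. Had the matrices themselves been exchanged, every direction given below would be the opposite. Whether they were was not tested. The study reports a smaller VSMC share and larger macrophage and neutrophil shares in AngII+HS than in Control. In the matrices as used, macrophages were 4.59% of Control and 22.9% of AngII+HS cells, and neutrophils 0.964% and 23.6%. The 2 lists shared 67 barcodes.

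T and B cells served as the measure of RNA that reaches a droplet without being made in its cell, since they are not known as main sources of *Ace*, *Enpep*, *Agt* or the AngII receptors. In these cells *Ace* stood at 4.31 CPM in Control and 6.09 CPM in AngII+HS. *Enpep* stood at 1.08 and 1.63 CPM, *Agt* at 0 and 0.203 CPM. *Agtr1a* had 0 UMIs in Control, where 3 counts would be 3.23 CPM, and 12 UMIs (2.44 CPM) in AngII+HS. *Agtr2* had 0 UMIs in both libraries. Levels near these values in other types are described as near background. In AngII+HS the median depth was 2308 UMIs in T cells and 1983 in B cells, against 9481 in VSMCs and 5375 in fibroblasts. Equal CPM thus need not mean equal background RNA per droplet.

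Over all retained cells *Agtr1a*, *Agt* and *Atp6ap2* had more CPM in AngII+HS, and *Ace*, *Enpep* and *Lnpep* had fewer. *Agtr1a* had 124 UMIs (1.65 CPM) in Control and 374 (4.64 CPM) in AngII+HS. *Agt* had 76 (1.01 CPM) and 186 (2.31 CPM), and *Agtr2* had 6 (0.0797 CPM) and 9 (0.112 CPM). For *Agtr2* the log2 ratio was 0.49 (-1.17 to 2.26), an interval that holds 0, so no direction is given. *Ace* had 4973 UMIs (66.05 CPM) and 4660 (57.8 CPM), and *Enpep* had 1157 (15.4 CPM) and 855 (10.6 CPM). *Lnpep* had 20449 (272 CPM) and 15613 (194 CPM), and *Atp6ap2* had 6211 (82.5 CPM) and 11138 (138 CPM). The cells that held these UMIs differed between the libraries along with the cell makeup.

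**Figure D1:**
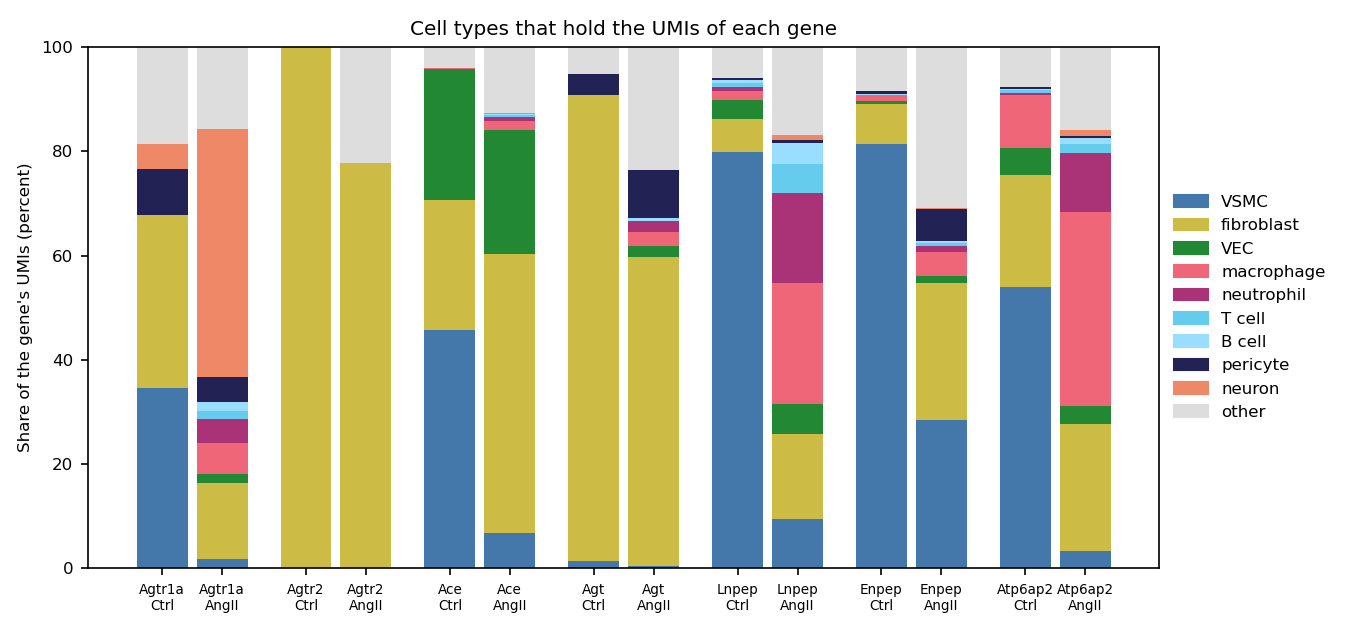
Share of each gene's UMIs (percent, vertical axis) held by each cell type (colours), with 1 bar per gene and library (Ctrl, Control; AngII, AngII+HS); grey is all other cells. VSMCs held 81.3% of *Enpep* and 79.8% of *Lnpep* UMIs in Control but 28.5% and 9.50% in AngII+HS, and neurons held 47.6% of *Agtr1a* UMIs in AngII+HS.

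Among the retained cells *Agt* transcripts came mostly from fibroblasts, and pericytes held 3.95% of them in Control and 9.14% in AngII+HS. Fibroblasts held 89.5% of the *Agt* UMIs of Control and 59.1% of those of AngII+HS. Their level was 7.76 CPM (95% interval 6.03 to 9.84, 68 UMIs in 40 of 1900 cells) in Control and 4.64 CPM (3.82 to 5.60, 110 UMIs in 64 of 3704 cells) in AngII+HS. The log2 ratio of AngII+HS over Control was -0.74 (-1.19 to -0.28). Within fibroblasts the gene sat in the subcluster led by *Inmt*, *Penk* and *Clec3b*, with 57 of the 68 Control UMIs and 74 of the 110 AngII+HS UMIs. There the level was 21.1 CPM in Control and 27.4 CPM in AngII+HS, a log2 ratio of 0.38 (-0.14 to 0.91) whose interval holds 0. That subcluster was 33.4% of Control fibroblasts and 17.5% of AngII+HS fibroblasts. Over the 6 subclusters present in both libraries the log2 ratio was -0.49 at their own mix. With their AngII+HS levels weighted to the Control mix, the level was 9.31 CPM, a log2 ratio of 0.26. Fat tissue around vessels is a known source of angiotensinogen, and markers of adipocytes summed to 0 UMIs (Control) and 6 UMIs (AngII+HS) in the subcluster. With no doublets removed, a cluster of 102 cells (1 Control and 101 AngII+HS) was named adipocyte. No cluster had that name after doublet removal, so a part of such cells in *Agt* was not tested.

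Pericytes had 3 *Agt* UMIs (10.0 CPM) in 42 Control cells and 17 UMIs (35.8 CPM, 20.9 to 57.3) in 93 AngII+HS cells, a ratio of 3.56 (1.03 to 19.0). This ratio was not run under the alternative settings, and doubling the doublets removed would take 85 of those 93 cells. Cells set apart from VECs, with pericyte genes among their leading genes, had 0 *Agt* UMIs in 11 Control cells and 11 (41.6 CPM) in 27 AngII+HS cells. The *Pln*-led mural cluster had 2 *Agt* UMIs (1.71 CPM) in Control and 14 (23.8 CPM, 12.99 to 39.9) in AngII+HS. VSMCs held 1 *Agt* UMI in 5055 Control cells and 1 in 536 AngII+HS cells, VECs held 0 and 4, and macrophages 0 and 5. The 2 named classes at the top of the order, pericytes and fibroblasts, overlapped in Control and not in AngII+HS.

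**Figure D2:**
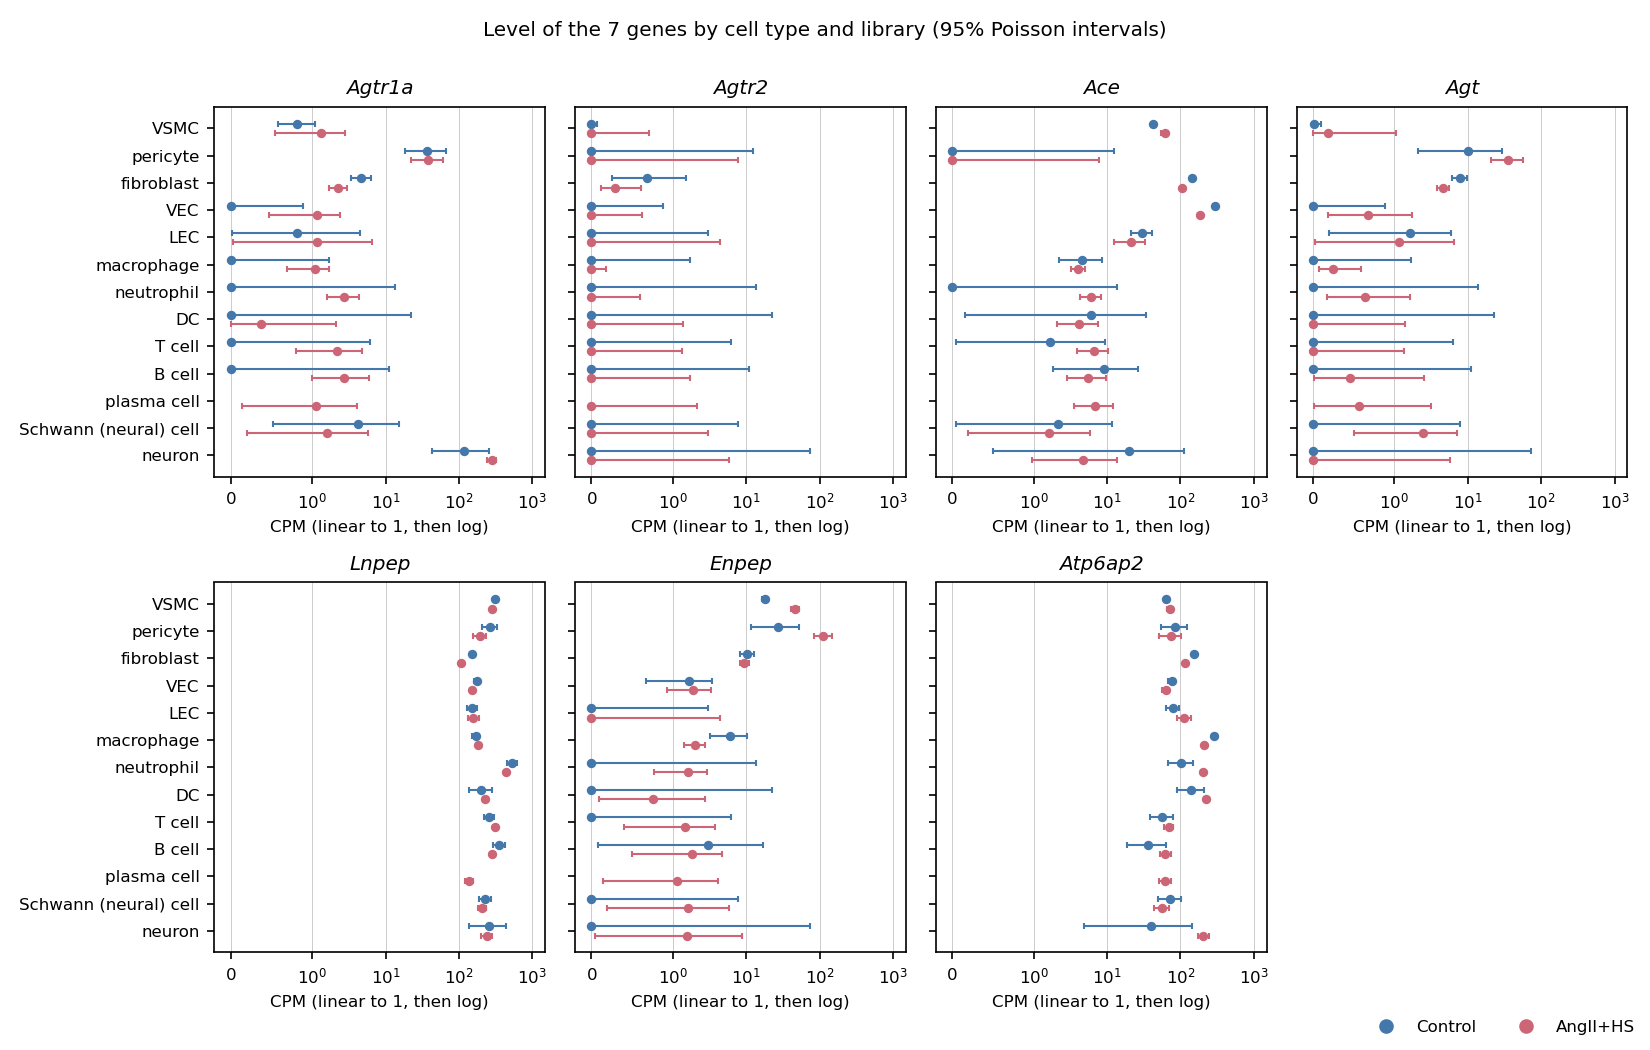
Level of the 7 genes (CPM, horizontal axis, linear to 1 and then logarithmic) in 13 cell types for the Control (blue) and AngII+HS (red) libraries; points are summed cells and bars 95% Poisson intervals. *Ace* was highest in VECs (298 CPM in Control), *Enpep* in pericytes and VSMCs, *Agtr1a* in neurons and pericytes, while *Lnpep* and *Atp6ap2* were measured in every type.

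*Ace* was highest in VECs, then in fibroblasts and VSMCs, in both libraries, and the intervals of these 3 types did not overlap. In Control the levels were 298 CPM (282 to 315) in VECs, 142 CPM (134 to 150) in fibroblasts and 42.8 CPM (41.1 to 44.6) in VSMCs. In AngII+HS they were 186 CPM (175 to 197), 105 CPM (101 to 110) and 61.1 CPM (54.6 to 68.2). Lymphatic endothelial cells followed with 29.9 CPM, an interval that overlapped that of VSMCs, and 21.1 CPM. Pericytes had 0 *Ace* UMIs in both libraries, which, taken as 3 counts, allows up to 10.0 CPM in Control and 6.32 CPM in AngII+HS. Macrophages, at 4.57 and 4.02 CPM, neutrophils, dendritic cells and plasma cells were near the level in T and B cells. An *Ace* UMI was seen in 56.0% of Control VECs and 36.5% of AngII+HS VECs. Thinned to 1000 UMIs per cell, which leaves out 14 and 81 shallower VECs, the shares were 23.3% and 14.5%, against 0.553% and 0.599% of T and B cells.

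The VEC level of *Ace* was lower in AngII+HS by a log2 ratio of -0.68 (-0.80 to -0.56), while no VEC subcluster showed a ratio whose interval left out 0. The arterial subcluster led by *Ptprj* and *Klk10* had 517 CPM in Control and 488 CPM in AngII+HS, a log2 ratio of -0.09 (-0.27 to 0.10). A subcluster led by *Gadd45b* and *Cish* had 432 and 442 CPM, and the arterial one led by *Dkk2* and *Alpl* had 199 and 240 CPM. The subcluster led by *Adarb2* had 108 and 75.2 CPM and the venous one 75.4 and 57.0 CPM. Capillary cells had 22.8 and 24.8 CPM, a log2 ratio of 0.12 (-0.77 to 1.09). In either library the *Ptprj*-led arterial cells thus had over 10 times the *Ace* level of capillary cells. The mix of these cells differed: capillary cells were 17.8% of Control and 37.7% of AngII+HS VECs, and the *Ptprj*-led arterial cells 38.1% and 16.5%. At the Control mix the AngII+HS level was 291 CPM, a log2 ratio of -0.03. The *Gadd45b*- and *Adarb2*-led subclusters each had 1 marker of another type among their leading genes, and without them the ratio over all VECs was -0.98.

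**Figure D3:**
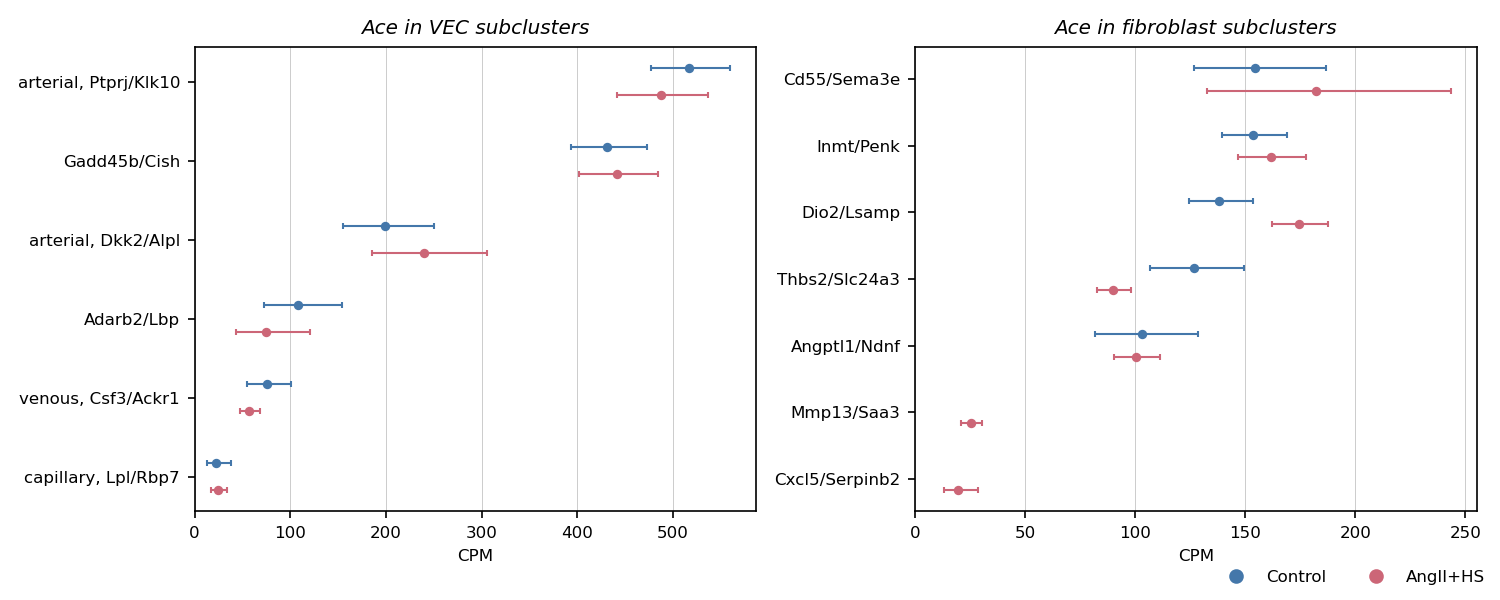
*Ace* level (CPM, horizontal axis) in 6 subclusters of VECs (left) and 7 of fibroblasts (right), named by their leading genes, in Control (blue) and AngII+HS (red); bars are 95% Poisson intervals. Intervals of the 2 libraries overlap in all 6 VEC subclusters, and the *Mmp13*- and *Cxcl5*-led fibroblasts, found in AngII+HS, lie at 25.4 and 19.6 CPM.

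Fibroblasts had 1242 *Ace* UMIs in Control and 2495 in AngII+HS, a log2 ratio of -0.43 (-0.53 to -0.33). Scaling by the trimmed mean of M values (TMM), which moves every fibroblast ratio up by 0.23 and every macrophage ratio up by 0.31, gave -0.20. Most Control fibroblasts were in the *Inmt*- and *Dio2*-led subclusters, and the *Thbs2*-led one was the most numerous in AngII+HS (1183 of 3704 cells). The *Thbs2*-led cells had 127 CPM in Control and 90.0 CPM in AngII+HS, a log2 ratio of -0.50 (-0.76 to -0.22). The *Dio2*-led cells had 138 and 175 CPM (0.34, 0.15 to 0.52). In the *Inmt*-led (154 and 162 CPM), *Angptl1*-led (103 and 100.4 CPM) and *Pi16* fibroblasts (154 and 182 CPM) the intervals of the ratio held 0. Subclusters seen in AngII+HS alone were low, with 25.4 CPM in 383 cells led by *Mmp13* and *Saa3* and 19.6 CPM in 88 cells led by *Cxcl5*. Of the 6 shared subclusters, 1 of which is not described here, 4 had a higher and 2 a lower value in AngII+HS. At the Control mix they gave 158 CPM, a log2 ratio of 0.15, against -0.11 at their own mix. The unnamed low-depth cluster with fibroblast markers had 107 and 136 CPM, a log2 ratio of 0.34 (-0.07 to 0.76).

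In VSMCs *Ace* was higher in AngII+HS by a log2 ratio of 0.51 (0.34 to 0.68). The *Plcxd3*-led VSMCs had 32.1 CPM in Control and 36.4 in AngII+HS, the *Actn2*-led ones 74.1 and 103 CPM, and the *Tnfaip3*-led ones 41.8 and 51.3 CPM. The *Sparcl1*-led VSMCs had 14.3 CPM (125 UMIs) and 4.31 CPM (3 UMIs). The interval of the log2 ratio held 0 in the *Plcxd3*-led (0.18) and *Tnfaip3*-led cells (0.29). It lay above 0 in the *Actn2*-led cells (0.47, 0.24 to 0.69) and below 0 in the *Sparcl1*-led cells (-1.73, -4.03 to -0.15). A small subcluster led by *Gria4* and *Nxph1*, with *Dcn* and *Igf1* among its leading genes, had 54.5 CPM in 99 Control cells and 214 CPM in 15 AngII+HS cells. The ratio over all VSMCs was 0.029 when the number of cells removed as doublets was doubled, which took out 156 of the 536 AngII+HS VSMCs.

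*Enpep*, the enzyme that removes AngII by turning it into angiotensin III, was higher in AngII+HS across the mural cells. VSMCs had 941 UMIs in Control and 244 in AngII+HS, which is 17.7 CPM (16.6 to 18.9) against 46.7 CPM (41.0 to 53.0). The log2 ratio was 1.40 (1.19 to 1.60). An *Enpep* UMI was seen in 15.8% of Control VSMCs and 31.9% of AngII+HS VSMCs, whose median depths were 9982 and 9481 UMIs. After thinning, which left out 1 Control cell, the shares were 1.75% and 4.79%, against 0.0781% and 0.171% of T and B cells. All 4 main VSMC subclusters showed the difference. The *Plcxd3*-led one had no VSMC marker and 1 VEC marker, *Pecam1*, among its 10 leading genes, while all 5 VSMC markers were detected in it. The levels were 20.6 and 60.2 CPM in *Plcxd3*-led, 12.4 and 27.3 CPM in *Actn2*-led, 17.2 and 47.3 CPM in *Tnfaip3*-led and 22.4 and 63.2 CPM in *Sparcl1*-led cells. Their log2 ratios ran from 1.14 to 1.55, and no interval reached 0.

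**Figure D4:**
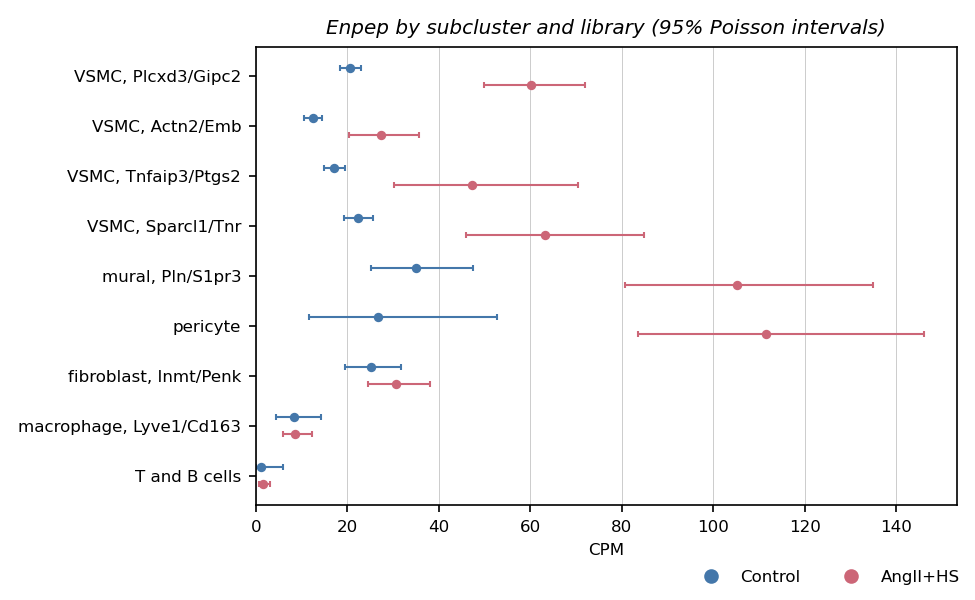
*Enpep* level (CPM, horizontal axis) in subclusters of VSMCs, the *Pln*-led mural cluster, pericytes, 1 fibroblast and 1 macrophage subcluster and T and B cells, in Control (blue) and AngII+HS (red); bars are 95% Poisson intervals. The 4 VSMC subclusters, the *Pln*-led cluster and the pericytes are higher in AngII+HS with intervals apart, and the other 3 groups overlap.

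Among the 5 of the 7 genes with at least 20 UMIs in VSMCs, *Enpep* was the only one at least 2-fold higher and none was 2-fold lower. Over all 15443 genes with that many UMIs in VSMCs, 5.19% were 2-fold higher and 12.4% were 2-fold lower. The median log2 ratio was 0.51 for the 5 genes, which is the value of *Ace*, and -0.08 for all genes. The same medians were -0.46 and -0.18 in fibroblasts and -0.27 and 0.05 in VECs. They were -0.19 and -0.11 in macrophages and 0.04 and 0.07 in pericytes.

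Pericytes, which wrap capillaries, had 8 *Enpep* UMIs in 7 of 42 Control cells (26.8 CPM, 11.6 to 52.8) and 53 in 31 of 93 AngII+HS cells (112 CPM, 83.6 to 146). The log2 ratio was 2.06 (0.98 to 3.34). The *Pln*-led mural cluster gave 35.1 CPM (41 UMIs) and 105 CPM (62 UMIs), a log2 ratio of 1.58. Of the 5 genes with at least 20 UMIs in pericytes, *Enpep* and *Agt* were 2-fold higher and none was lower, while 9.97% of 5738 genes were 2-fold higher and 6.92% lower there. The pericyte class is uncertain. Control pericytes also held the VSMC markers at 26530 CPM, near the 27726 CPM of VSMCs, against 14475 CPM in AngII+HS pericytes. The share of that difference in these ratios was not tested. Doubling the doublets removed would take 85 of the 93 AngII+HS pericytes and 12 of the 42 Control ones.

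Cells set apart followed no single pattern for *Enpep*. A low-depth mural subcluster had 27.6 CPM in Control and 60.8 CPM in AngII+HS. Cells between fibroblasts and mural cells, led by *Rgs5* and *Notch3*, had 2 UMIs in 44 Control cells and 82 UMIs (35.0 CPM) in 419 AngII+HS cells. Cells among the VECs with pericyte genes (*Rgs4*, *Notch3*, *Steap4*) had 129 CPM in 11 Control cells and 87.0 CPM in 27 AngII+HS cells.

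Outside the mural cells, fibroblasts had 10.3 CPM of *Enpep* in Control and 9.45 CPM in AngII+HS. The *Inmt*-led subcluster, the same one that held most *Agt* UMIs, had 68 of the 90 Control UMIs and 83 of the 224 AngII+HS UMIs. Its level was 25.1 and 30.8 CPM. All 6 shared fibroblast subclusters had a higher value in AngII+HS, 5 of them on 3 to 7 Control UMIs, and the Control mix gave 14.3 CPM. Macrophages had 13 UMIs (5.95 CPM) and 40 UMIs (2.01 CPM), a log2 ratio of -1.57 (-2.50 to -0.54). All 13 Control UMIs and 31 of the 40 lay in the resident *Lyve1*-led macrophages, at 8.37 and 8.66 CPM. Those cells were 74.1% of Control and 22.3% of AngII+HS macrophages, where an *Arg1*-led subcluster was 41.2%. Of the 5 genes with at least 20 UMIs in macrophages, *Enpep* was the only one at least 2-fold lower and none was higher, where 17.3% of 13843 genes were 2-fold lower and 10.5% higher. Over the 4 shared subclusters, which leave out the *Arg1*-led one, the log2 ratio was -1.02 at their own mix and 0.06 at the Control mix.

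*Lnpep* was measured in every named cell type at 96.2 CPM or more, including T and B cells (292 and 302 CPM). It was highest in neutrophils, at 530 CPM (144 UMIs) in Control and 436 CPM (2708 UMIs) in AngII+HS. B cells had 356 and 286 CPM, VSMCs 308 and 284 CPM, and T cells 256 and 315 CPM. Fibroblasts stood lower, at 150 and 107 CPM, and the log2 ratio was -0.49 (-0.59 to -0.39). All 6 shared fibroblast subclusters were lower in AngII+HS, from -0.04 in the *Thbs2*-led cells to -0.74 in *Pi16* fibroblasts, and in 3 of them the interval held 0. The unnamed low-depth cluster with fibroblast markers had 78.5 and 96.5 CPM, a log2 ratio of 0.30 (-0.19 to 0.80). VECs had 175 and 151 CPM, and macrophages 169 and 182 CPM. In VSMCs the log2 ratio was -0.12, and its sign turned to 0.066 without integration of the libraries, so no direction is given.

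The AngII type 1 receptor gene *Agtr1a* was highest, on the CPM scale, in neurons and pericytes, while VSMCs, the most numerous Control cells, held 34.7% of the Control UMIs at a low level. The neuron cluster, led by *Cntnap2*, *Npy* and *Syt1*, held all 4 neuron markers, which summed to 5105 CPM in its AngII+HS cells against 101 CPM in the next highest type. It had 6 *Agtr1a* UMIs in 1 of 5 Control cells (119 CPM, 43.5 to 258) and 178 UMIs in 19 of 42 AngII+HS cells (280 CPM, 241 to 325). The 19 cells had a median of 7 UMIs, the highest had 30, and without that cell 148 UMIs were left. This cluster was 0.213% of AngII+HS cells and held 47.6% of that library's *Agtr1a* UMIs. All 42 AngII+HS neurons would be removed if the number taken out as doublets were doubled, and 5 Control cells are too few for a comparison.

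Pericytes had 11 *Agtr1a* UMIs in 4 of 42 Control cells (36.8 CPM, 18.4 to 65.9) and 18 in 16 of 93 AngII+HS cells (37.9 CPM, 22.5 to 59.9). The log2 ratio was 0.04 (-1.12 to 1.27), so a 2-fold difference either way is within counting error. The cells with pericyte genes set apart from VECs had 90.8 CPM in Control and 56.7 CPM in AngII+HS. In the *Pln*-led mural cluster the level was 5.99 CPM (7 UMIs) in Control and 35.6 CPM (21 UMIs) in AngII+HS, a log2 ratio of 2.57 (1.29 to 4.05). The pericyte markers there summed to 304 and 587 CPM, and their part in this ratio was not tested.

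VSMCs had 43 *Agtr1a* UMIs in 39 of 5055 Control cells (0.810 CPM, 0.587 to 1.09) and 7 in 536 AngII+HS cells (1.34 CPM, 0.539 to 2.76). In Control this is under the 3.23 CPM that 0 UMIs in T and B cells allow. In AngII+HS it is under the CPM measured in those cells. VSMCs are deeper than T and B cells, so this comparison cannot say whether these UMIs are background. Fibroblasts had 41 UMIs (4.68 CPM, 3.36 to 6.35) in Control and 54 (2.28 CPM, 1.71 to 2.97) in AngII+HS, a log2 ratio of -1.04 (-1.65 to -0.42). The AngII+HS level equals the 2.44 CPM of T and B cells within counting error, though fibroblasts are deeper, so the same limit holds. *Pi16* fibroblasts, an adventitial class, had 12.99 CPM (9 UMIs) in Control and 2 UMIs in AngII+HS. Over the 6 shared subclusters the log2 ratio was -0.80 at their own mix and -0.42 at the Control mix, and TMM scaling gave -0.80. Over the other alternatives that gave a value it ran from -1.05 to -0.47, so the 2-fold mark was not passed under all of them. With the T and B cell level subtracted no ratio could be formed, because the AngII+HS level lay below it. Of the 6 genes with at least 20 UMIs in fibroblasts, *Agtr1a* was the only one 2-fold lower and none was 2-fold higher, where 9.41% of 15433 genes were lower and 7.29% higher. In AngII+HS neutrophils (2.74 CPM), B cells (2.75 CPM) and T cells (2.19 CPM) lay at one another's level, and their neighbours in the order overlapped.

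*Agtr2*, the type 2 receptor gene, was found in fibroblasts alone. There were 6 UMIs in 5 of 1900 Control cells (0.685 CPM, 0.251 to 1.49) and 7 UMIs in 7 of 3704 AngII+HS cells (0.295 CPM, 0.119 to 0.609). The intervals overlap, and no difference was detectable at this depth. In Control 4 of the 6 UMIs were in *Pi16* fibroblasts, and in AngII+HS all 7 were in the *Thbs2*-led subcluster. Another 2 UMIs of AngII+HS were in fibroblast subclusters set apart.

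*Atp6ap2* was highest in macrophages in Control, at 290 CPM (634 UMIs) against 209 CPM (4152 UMIs) in AngII+HS. The log2 ratio was -0.48, and it became 0.014 without integration of the libraries and -0.16 with TMM scaling. Without integration a cluster led by *Cd163* and *Folr2* (445 Control and 605 AngII+HS cells) stayed unnamed and was left out of the macrophages. The part of those cells in the 0.014 was not tested. Resident macrophages had 327 and 289 CPM. In Control fibroblasts followed with 153 CPM (114 CPM in AngII+HS, log2 ratio -0.42), dendritic cells with 141 CPM (225 CPM) and neutrophils with 103 CPM on 28 UMIs (203 CPM on 1260). VSMCs had 63.1 and 72.4 CPM, a log2 ratio of 0.20, and VECs 76.4 and 63.1 CPM. T and B cells had 48.5 and 66.2 CPM, so VSMCs and VECs lay close to them. In VECs none of the 3 genes with at least 20 UMIs reached 2-fold, where 8.44% of 13014 genes were higher and 6.06% lower. The AngII+HS cells of the erythroid class gave 362 CPM on 169 UMIs. The name of this class is uncertain in AngII+HS. Its erythroid markers summed to 597811 CPM in Control and 41962 CPM in AngII+HS. Its AngII+HS cells held the macrophage markers at 1328 CPM, the highest outside macrophages (4504 CPM). This class also held mast cell protease genes, and 81 of its 110 AngII+HS cells would go if doublet removal were doubled.

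**Figure D5:**
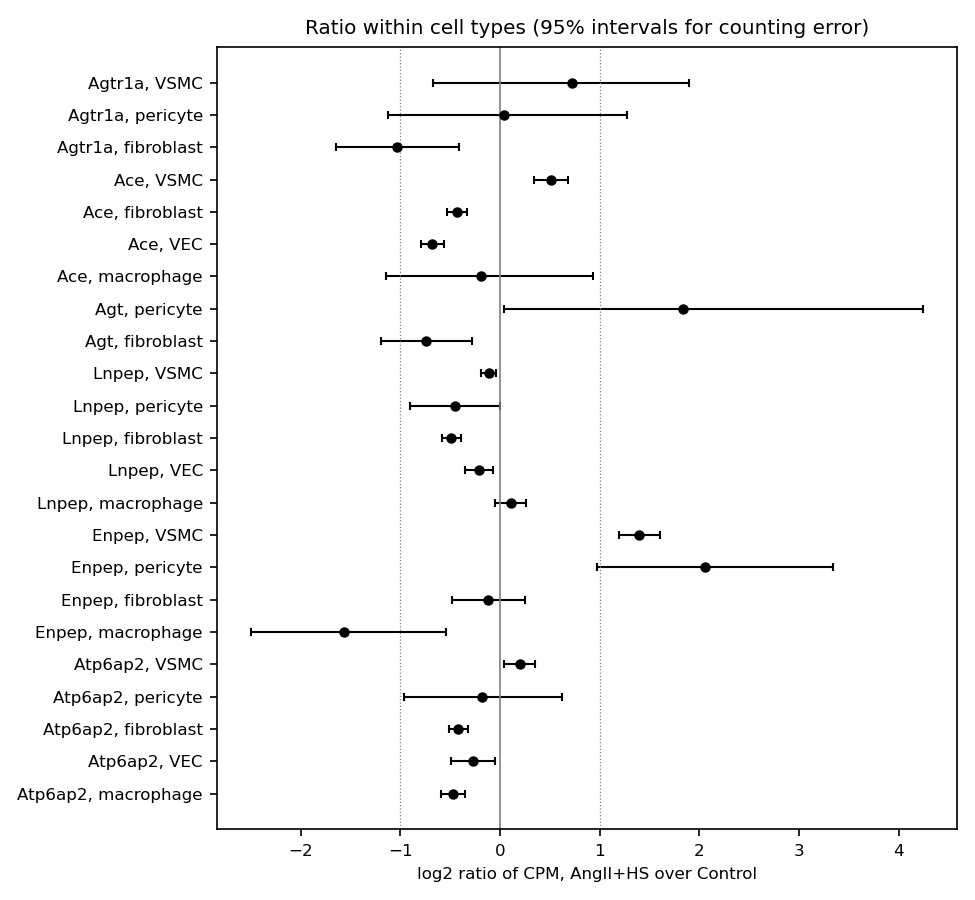
Log2 ratio of CPM, AngII+HS over Control (horizontal axis), for each gene and main cell type with at least 20 UMIs and at least 1 in each library; bars are 95% intervals for counting error and dotted lines mark 2-fold. *Enpep* in VSMCs (1.40) and pericytes (2.06) and *Agt* in pericytes (1.83) lie above 1. *Enpep* in macrophages (-1.57) and *Agtr1a* in fibroblasts (-1.04) lie below -1.

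The other genes of the pathway were read from a list of 17, of which 13 had at least 50 UMIs. *Mas1* (29 UMIs), *Mrgprd* (28) and *Klk1* (6) were among those below that. None of the 9 measured in VSMCs was 2-fold different, where 5.19% of all genes were higher and 12.4% lower. In macrophages 2 of 8 were higher and none was lower, against 10.5% and 17.3% of all genes. In VECs 1 of 7 was higher and 1 lower, against 8.44% and 6.06%. In fibroblasts 1 of 10 was higher and 1 lower, against 7.29% and 9.41%. In pericytes 1 of 3 was higher, against 9.97%. Counts this small are not read against those shares. The second type 1 receptor gene, *Agtr1b*, was highest in VSMCs among the named classes. It had 819 UMIs (15.4 CPM) in Control and 101 (19.3 CPM) in AngII+HS, a log2 ratio of 0.33 (0.01 to 0.63). VSMCs held 88.0% and 43.5% of its UMIs. Renin (*Ren1*) had 32 UMIs in Control, 25 of them in fibroblasts, and 86 in AngII+HS. Of those 86, 34 were in 1 cell of a mural subcluster set apart, 18 were in 4 pericytes and 21 in fibroblasts. The fibroblast level was 2.85 CPM and 0.886 CPM.

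The mast cell genes that can form or trim AngII, *Cma1*, *Mcpt4* and *Cpa3*, lay mostly in cells of the erythroid class. *Cma1* had 259 of its 283 Control UMIs in 7 such cells and 251 of its 339 AngII+HS UMIs in 6. *Mcpt4* had 216 of 237 and 234 of 276 UMIs there. *Cpa3* had 225 of 342 and 205 of 271, and 93 of its Control UMIs were in VSMCs. Fibroblasts had 0 and 23 *Cma1* UMIs, and their 0.971 CPM in AngII+HS was under the 1.63 CPM of T and B cells. With the Control count put at 3, *Cma1* is the 1 pathway gene counted as 2-fold higher in fibroblasts, at that low level. Cathepsin G (*Ctsg*) had 2 UMIs in Control and 151 in AngII+HS macrophages, all 151 in 2 cells. Of the peptidases that remove angiotensin peptides, *Prcp* was 232 CPM in Control and 134 CPM in AngII+HS macrophages but 73.5 and 191 CPM in VECs, a log2 ratio of 1.38 (1.198 to 1.57) in VECs. Neprilysin (*Mme*) was 22.5 and 11.5 CPM in fibroblasts and 7.18 and 1.52 CPM in VECs. *Anpep*, aminopeptidase N, was 79.2 and 67.4 CPM in fibroblasts and 5.03 and 19.8 CPM in macrophages. *Ctsa*, cathepsin A, was 165 and 233 CPM in macrophages. *Nln* (31.1 and 29.7 CPM), *Prep* (25.6 and 22.1 CPM) and *Thop1* (1.83 and 3.52 CPM), 3 soluble peptidases, were within 2-fold there.

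Of 9 partners of the AngII receptors, all had at least 20 UMIs in VSMCs, fibroblasts, VECs and macrophages and 5 did in pericytes. *Zbtb16*, whose product binds the type 2 receptor, was the only one 2-fold lower in these classes, and *Arrb2* in VECs (4.07 and 8.27 CPM) the only one 2-fold higher. The shares of all genes 2-fold lower were 12.4% in VSMCs, 9.41% in fibroblasts, 6.06% in VECs, 17.3% in macrophages and 6.92% in pericytes. In VECs 8.44% were 2-fold higher, and counts this small are not read against those shares. *Zbtb16* was 153 CPM in Control and 62.8 CPM in AngII+HS fibroblasts, 153 and 56.0 CPM in VECs, 81.9 and 12.7 CPM in macrophages and 204 and 86.4 CPM in pericytes. VSMCs had 227 and 149 CPM. *Mtus1*, another type 2 receptor partner, was 104 and 171 CPM in pericytes and 96.0 and 64.2 CPM in VSMCs. The G protein genes *Gnaq* and *Gna11*, which carry type 1 receptor signals, were 124 and 96.3 CPM and 151 and 161 CPM in VSMCs. *Rgs2*, a brake on that signal, was 82.1 and 43.7 CPM in VSMCs and 17.0 and 33.4 CPM in fibroblasts. *Agtrap*, which binds the type 1 receptor, was 10.6 and 12.1 CPM in VSMCs and 23.5 and 20.6 CPM in fibroblasts. *Arap1* (159 and 126 CPM), *Arrb1* (47.6 and 25.6 CPM) and *Arrb2* (100.2 and 108 CPM) are given for macrophages, where none reached 2-fold.

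Of the 6 other M1 aminopeptidases, the enzyme family of *Enpep* and *Lnpep*, 5 had at least 50 UMIs, and *Trhde* had 22. None of 5 was 2-fold different in VSMCs, beside the 2.63-fold ratio of *Enpep*, where 5.19% of all genes were higher and 12.4% lower. In fibroblasts 1 of 5 was lower, against 9.41% of all genes. In macrophages 1 of 4 was higher, against 10.5%, and in pericytes 1 of 3, against 9.97%. None of 4 reached 2-fold in VECs. *Lvrn* was 41.9 CPM in Control and 8.99 CPM in AngII+HS fibroblasts, a log2 ratio of -2.22 (-2.47 to -1.97). *Npepps* was 118 and 110 CPM in VSMCs, *Erap1* 16.9 and 17.2 CPM and *Rnpep* 19.9 and 22.4 CPM. All 13 V-ATPase genes were measured beside *Atp6ap2*, and none of them was 2-fold different in VSMCs, fibroblasts or VECs. Over all genes in those classes, 5.19%, 7.29% and 8.44% were 2-fold higher and 12.4%, 9.41% and 6.06% lower. In pericytes 2 of 12 were higher, against 9.97% of all genes. In macrophages 1 of 13 was higher and 1 lower, against 10.5% and 17.3%. In macrophages *Atp6v1e1* was 180 CPM in Control and 399 CPM in AngII+HS, *Atp6v1h* 439 and 212 CPM, and the median log2 ratio of the 13 was 0.21, while *Atp6ap2* was -0.48.

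The pattern of each gene over 30 groups of cell type and library was compared with 14620 genes by the Pearson correlation of log2(CPM + 1), as a description. Unnamed clusters and subclusters set apart, of low depth or mixed, counted as types here. The groups come from 2 libraries and share their depth. Each needed at least 50 cells, so neurons (5 and 42) and Control pericytes (42) were among those left out. Neurons had the highest *Agtr1a* level of the named classes and 0 *Agt* UMIs in both libraries. *Agtr1a* and *Agt* were each among the 5 genes most like the other (0.85), and both had *Lin7a* among theirs. *Enpep* was most like *Notch3* (0.92), *Ano1* (0.91), *Carmn* (0.91), *Aoc3* (0.91) and *Gm12122* (0.90). *Ace* was most like *Gxylt2* (0.93) and *Mcc* (0.88) and had the endothelial and adventitial gene *Cd34* (0.86) among its 5. *Agtr2* was most like *Lvrn* (0.90), *Lnpep* like *Rlf* (0.86), and *Atp6ap2* like *Tgfbi* (0.84) and the proton pump gene *Atp6v0c* (0.83). The libraries were also summed into 19 types, again without neurons and with unnamed and set-apart ones. There 4 of the 5 genes remained for *Agt* and *Agtr2*, 3 for *Ace*, 2 for *Agtr1a*, *Lnpep* and *Enpep* and none for *Atp6ap2*. *Agtr2* had only 6 UMIs in Control and 9 in AngII+HS, fewer than the minimum asked of the compared genes. All of them lay in fibroblasts or in fibroblast subclusters set apart. The likeness of *Agtr2* to other genes thus rests on few groups with any count, and its 4 remaining genes are not read as a stable result.

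By the GENCODE annotation of assembly GRCm39 the genes lie on 6 chromosomes. *Agtr1a* is at chr13:30518942-30566850, *Agtr2* at chrX:21350763-21355403, *Ace* at chr11:105858469-105880790 and *Agt* at chr8:125279301-125296716. *Lnpep* is at chr17:17741672-17845312, *Enpep* at chr3:129062824-129126369 and *Atp6ap2* at chrX:12453960-12495037. *Agtr1a* overlaps *Gm48161* on its own strand, and how reads from the shared stretch were counted was not tested.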

How the data were processed

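The deposited files are 10x Genomics matrices, 1 per library, of whole-number UMI counts for each gene in each barcode, which the authors derived from reads of a 3′ kit with Cell Ranger and did not normalize. The file headers give Cell Ranger 8.0.1, the labels name build mm10 and the study's methods GRCm39. The members and gene lists were chosen with earlier results of these data known, and the rules for naming clusters were settled after looking at the clusters.

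Barcodes with at least 500 UMIs and 200 genes and at most 20% mitochondrial UMIs were kept, and likely doublets were removed at 0.8% per 1000 cells (1019 Control and 4826 AngII+HS cells). Cells were integrated and clustered with Seurat 5.3.0 on 2000 variable genes and 30 components at resolution 0.8, without the members and listed genes, and subclustered at 0.4. A class needed at least 3 detected markers. Counts were summed per type and library. Intervals at 95% are exact Poisson for levels, Clopper-Pearson for shares and conditional binomial for ratios. The ratios and their intervals were run on simulated independent Poisson counts, which do not cover UMIs clumped in single cells. A gene with at least 20 UMIs in a type was counted as 2-fold different at a log2 ratio of 1 or more, with a count of 0 put at 3. Named genes are the 7 members, the listed pathway, partner, aminopeptidase and V-ATPase genes with at least 50 UMIs, and the 5 genes most like each member among those with at least 200 UMIs, over groups of at least 50 cells. Alternatives changed doublet removal, cell filters, resolution, integration, scaling (TMM from edgeR 4.0.16) and depth. Another subtracted the T and B cell level from *Agtr1a*, *Agtr2*, *Ace*, *Agt* and *Enpep*. Returning the subclusters set apart and weighting to the Control mix were chosen after seeing the data. Values of 1 listed gene and of 1 fibroblast subcluster are not reported here.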

Additional observations from a re-analysis of the deposited data

Results flagged for a closer look

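Among ratios of AngII+HS over Control in VSMCs, fibroblasts, VECs, macrophages and pericytes on at least 20 UMIs, the pairs below had counting intervals on opposite sides of 0. None of these differences was tested, since each condition is 1 library. The log2 ratio of *Ace* was 0.51 in VSMCs and -0.68 in VECs, a difference of 1.19, and it was -0.43 in fibroblasts, a difference of 0.94. The log2 ratio of *Atp6ap2* was 0.20 in VSMCs. It was -0.48 in macrophages, a difference of 0.67, -0.42 in fibroblasts, a difference of 0.62, and -0.27 in VECs, a difference of 0.47. The log2 ratio of *Enpep* was -1.57 in macrophages, 2.96 below that of VSMCs (1.40) and 3.62 below that of pericytes (2.06). For *Agt* it was 1.83 in pericytes, on 3 Control UMIs, and -0.74 in fibroblasts, a difference of 2.57. At the Control mix of shared subclusters *Ace* was -0.03 in VECs and 0.15 in fibroblasts, *Enpep* in macrophages 0.06 and *Agt* in fibroblasts 0.26. *Enpep* (1.45) and *Ace* (0.29) in VSMCs kept their sign, as did *Atp6ap2* in VSMCs, fibroblasts, VECs and macrophages. *Ace* in VSMCs was 0.029 with double the doublets removed, and *Atp6ap2* in macrophages 0.014 without integration, where the *Cd163*-led cluster was left out.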

How the results depend on the processing

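No paired analysis was possible because each condition is 1 library and the groups share fewer than 2 replicate numbers. For 15 ratios in main cell types, 179 alternatives were run. In 148 the value stayed within the counting interval of the ratio reported and in 26 it moved out of it. In 5 it moved out and turned the sign of a ratio whose interval left out 0. *Enpep* in fibroblasts (-0.23 to 0.27) and *Agtr1a* in pericytes (-0.14 to 1.42), whose intervals hold 0, also took both signs. After the data were seen, a setting was added that left out subclusters with 1 leading marker of another type. It gave -0.98 for *Ace* in VECs and kept the other ratios within their intervals, and under the other settings *Ace* in VECs stayed between -0.79 and -0.67. For *Lnpep* in VSMCs the log2 ratio was 0.066 without integration, 0.023 at resolution 0.4, 0.063 at resolution 1.2, 0.059 with the subclusters set apart returned, -0.0072 with equal weight per cell and -0.0060 thinned to 1000 UMIs. *Atp6ap2* in macrophages was 0.014 without integration, where the *Cd163*-led cluster stayed unnamed and was left out, and -0.16 with TMM scaling. With no doublets removed, *Agtr1a* in pericytes was 1.42, *Ace* in VSMCs 0.80, *Enpep* in VSMCs 1.16 and in fibroblasts 0.26, and *Atp6ap2* in fibroblasts -0.31 and in VSMCs 0.36. There the cluster named pericyte was the *Pln*-led mural one. With double the doublets removed, *Ace* was -0.15 in fibroblasts and 0.029 in VSMCs, *Lnpep* in fibroblasts -0.35 and *Enpep* in VSMCs 1.68. Without integration, *Ace* in VSMCs was 0.33, *Lnpep* in fibroblasts -0.39 and *Enpep* in fibroblasts 0.27. At resolution 1.2 *Ace* in VSMCs was 0.32. With equal weight per cell, *Ace* in fibroblasts was -0.18, *Lnpep* -0.29 and *Enpep* 0.27. With TMM they were -0.20 for *Ace*, -0.26 for *Lnpep* and -0.18 for *Atp6ap2*, and thinned -0.20 for *Ace* and -0.30 for *Lnpep*. The causes were not tested. Pericyte ratios gave no value with double the doublets removed (under 20 cells) or where no cluster took that name. *Agtr1a* in fibroblasts gave none with the T and B cell level subtracted. *Enpep* in pericytes ranged from 1.37 to 2.47. Depth limits *Agtr2*, *Agt* and *Agtr1a*, with 6 to 124 UMIs in Control.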
